A study of Drosophila melanogaster with 8 samples.

Results

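Adult Drosophila melanogaster heads with a neuronal knockdown of FBXO11, labelled RNA1, were compared with control heads across all genes. The series holds 8 RNA-seq libraries, and 6 of them make this comparison: 3 RNA1 libraries, whose genotype is entered as FBXO11 KD1, and 3 control libraries, entered as FBXO11 WT. The other 2 libraries, titled RNA2 and entered as KD2 and KD3, were fitted as 1 group and helped to set the estimate of the spread. Any difference between KD2 and KD3 thus counts as spread. The levels of these 2 libraries are given beside those of RNA1. Libraries were assigned by their titles, and every library carries batch 1. The labels give neither the neuronal driver, the RNA interference line, the age nor the sex of the flies, and they do not say whether the control flies carried a driver or a construct. Genetic background and the knockdown therefore cannot be told apart. The labels do not tell whether replicates were separate collections of flies. The p-values hence reflect only how much these libraries differ among themselves, which may be technical.

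FBXO11 is an F-box protein, the part of a cullin-RING ubiquitin ligase that picks out the proteins to be tagged for destruction by the proteasome. A fly head holds photoreceptors, brain neurons and glia together with muscle, fat body, epidermis and blood cells. A knockdown driven in neurons is thus read through an average over cells that carry the construct and cells that do not. In such bulk samples, fewer cells of a type and less RNA per cell cannot be told apart.

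FBXO11 (FBgn0037760, BDGP6 chromosome arm 3R:9803486-9809368, minus strand, with no exon shared with another gene) had 39.7, 42.5 and 37.4 scaled reads (CPM, counts set relative to library size) in the RNA1 libraries, 44.8 and 52.7 CPM in the RNA2 libraries and 108, 103 and 97.4 CPM in the control libraries. The groups did not overlap. The log2 fold change of RNA1 over control was -1.37 ± 0.09 (SE; 3 against 3 libraries; adjusted p = 4.9e-05 by edgeR's quasi-likelihood test).

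The RNA1 libraries held 36809556, 36132003 and 32434805 counted reads, and the control libraries 38933684, 41589222 and 39051500. On the first principal component of the 6 libraries (50.6% of the variance), RNA1 and control lay apart. The second (19.0%) spread the RNA1 libraries, with replicate 1 at -32.0, replicate 2 at 8.40 and replicate 3 at 24.6, while the control libraries lay between -2.13 and 1.23. Of the genes tested, 62.5% had a larger SD of log2 level among the RNA1 libraries than among the control libraries. The neuronal markers elav, nSyb, Syt1 and brp summed to 3819 to 4728 CPM in RNA1 and 4350 to 4776 CPM in control, and the 9 photoreceptor markers to 52729 to 54297 CPM and 52991 to 60106 CPM. None of those 13 markers was called by edgeR or limma-voom; 2 had an unadjusted edgeR p under 0.05 and DESeq2 called 2. The 3 glial markers summed to 150 to 172 CPM in RNA1 and 196 to 204 CPM in control, and 1 of them, wrapper, was lower. All 4 hemocyte (blood cell) markers were higher, with sums of 101 to 178 CPM in RNA1 and 52.2 to 68.3 CPM in control. The 7 fat body markers summed to 1643 to 2502 CPM in RNA1 and 1256 to 1634 CPM in control; edgeR called none of them, 3 had an unadjusted p under 0.05, DESeq2 called 2 and limma-voom 1. The yolk protein genes Yp1 and Yp2, made by females, stayed at or under 1.65 CPM in every library. Another yolk protein gene, Yp3, was present in both groups, at 27.73 to 37.54 CPM in RNA1 and 36.16 to 37.04 CPM in control. The gene fit, also in the sex marker list, lay at 6.786 to 10.39 CPM in RNA1 and 3.754 to 5.697 CPM in control. Neither Yp3 nor fit was called. The male dosage compensation RNA lncRNA:roX1 lay at 1334 to 1800 CPM in RNA1 and 1446 to 1672 CPM in control.

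In 2 of the RNA1 libraries, genes of other head or body parts stood high. RNA1 replicate 1 alone was high for genes of the antenna. Obp83a and Obp83b, odorant-binding proteins of the antenna, stood at 29.3 and 13 CPM there and at no more than 0.630 CPM in any other RNA1 or control library. The antennal genes Os-C, a10 and a5 stood at 22.8, 18.4 and 14 CPM, against at most 1.67, 0.469 and 0.0263 CPM elsewhere. RNA1 replicate 3 alone was high for digestive genes of the midgut: the proteases Jon65Aiv at 64.2 CPM and epsilonTry at 50.4 CPM and the lysozymes LysB at 43.3 CPM and LysD at 37 CPM, each at no more than 0.639 CPM in the other RNA1 and control libraries. By the rule of at least 5 CPM and at least 5 times the highest of the other 5 libraries, RNA1 replicate 1 had 7 such genes, RNA1 replicate 3 had 9, and the other 4 libraries had 0. Of these 16 genes 14 were tested, and edgeR and limma-voom called none of them, while 8 had an unadjusted edgeR p under 0.05 and DESeq2 called 1. Their part in other results was not tested beyond leaving out each library.

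**Figure D1:**
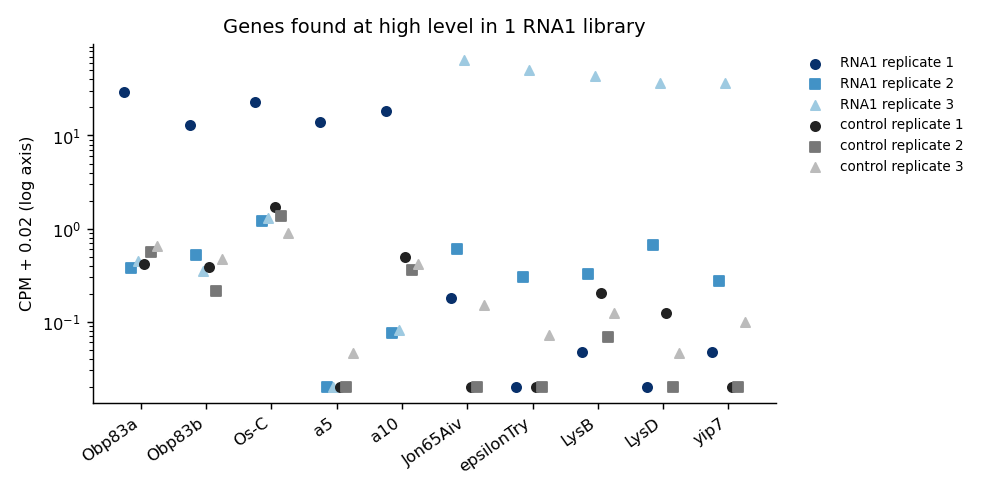
Level of 10 antennal and digestive genes (CPM with 0.02 added, log axis) in each RNA1 library (blue) and each control library (grey to black). The antennal genes at the left, Obp83a to a10, stand high in RNA1 replicate 1 only and the digestive genes at the right in RNA1 replicate 3 only.

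Across the transcriptome the comparison gave many changes of small size and few of large size. Of 11081 genes tested, 1137 (10.3%) were called, meaning an adjusted p under 0.05 by edgeR's quasi-likelihood test. RNA1 was higher in 555 (5.01%) and lower in 582 (5.25%). Scaling by library totals in place of TMM gave 733 higher and 487 lower, so that 60.1% of calls were then higher in place of 48.8%. In all 1137 the CPM of the 2 groups did not overlap, and 33.6% of all genes tested had groups that did not overlap, 17.0% with RNA1 higher and 16.6% with RNA1 lower. The genes called higher had a median change of 1.61-fold and those called lower 1.44-fold. A change of at least 2-fold was estimated for 192 genes called higher and 110 called lower, and of at least 4-fold for 58 and 30. Tested against a change of 1.5-fold in place of none, 77 genes were higher and 49 lower, 126 in all (1.14%).

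Fewer genes were called when any 1 of the 6 libraries was left out. There were 995, 570 and 931 calls without RNA1 replicate 1, 2 or 3, and 535, 476 and 548 without control replicate 1, 2 or 3. The tests past 1.5-fold gave 71, 70, 64 and 78 genes without control replicate 1, 2 or 3 or RNA1 replicate 2. A set of 375 genes (3.38%) was called in the same direction with all libraries and in each of those 6 fits, and these genes are termed retained below. Of them 176 (1.59%) were higher and 199 (1.8%) lower, with median changes of 2.13-fold and 1.71-fold. Genes of the immune effector list made up 28 of the 375. Of the other 347, 149 were higher and 198 lower, and 64 of the lower ones and 78 of the higher ones had a change of at least 2-fold. A name given by number alone, CG or CR, was carried by 159 of the 375, and 97 shared exon sequence with a gene on the opposite strand, whose reads can be mixed with theirs where strand was not used in counting.

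How small a change could be seen depended on the level of a gene. Among genes with a mean of up to 3 CPM, 5.81% were called and the 95% interval of the fold change lay within 1.5-fold in either direction for 2.75%. From 3 to 10 CPM, 10.9% were called and the interval was that narrow for 50.1%. Above 10 CPM, 11.6% were called and it was that narrow for 80.7%. Over all genes it was that narrow for 6675 genes (60.2%), and the median SE was 0.118 on the log2 scale.

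**Figure D2:**
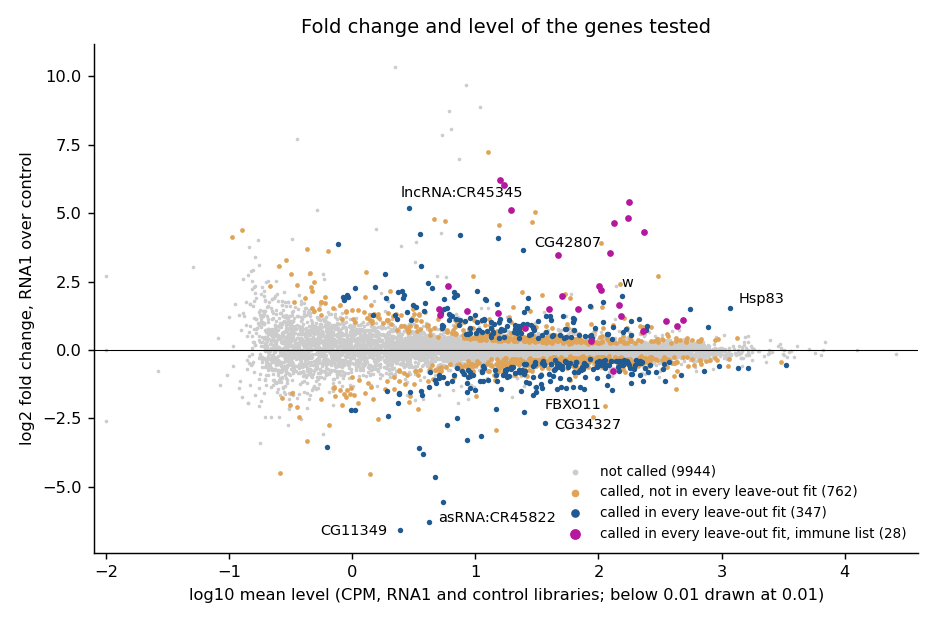
Log2 fold change of RNA1 over control against the log10 of the mean CPM of the 6 libraries, 1 point for each of the 11081 genes tested. Retained genes (blue, and purple for the immune effector list) make up 375 of the 1137 called, and the 762 other calls (orange) lie mostly nearer to 0.

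Of the retained genes outside the immune list, 19 rose at least 4-fold, and those with the largest rises were of mixed kinds. That list does not hold every gene tied to immunity: Mtkl and Bbd, described below, are outside it. The long noncoding RNA lncRNA:CR45345 had 6.04, 5.89 and 4.98 CPM in RNA1, 0.03 and 0.12 CPM in RNA2 and 0.03, 0.32 and 0.11 CPM in control (log2 5.18 ± 0.50, adjusted p = 0.00053). Its neighbour CG13949 had 7.29, 7.12 and 5.86 CPM in RNA1, 0.19 and 0.09 CPM in RNA2 and 0.18, 0.80 and 0.05 CPM in control (log2 4.25 ± 0.64). In both genes the RNA2 libraries lay at the control level.

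A second noncoding RNA, lncRNA:CR45680 (3R:13617750-13618559), lay at 15.6, 14.1 and 13.2 CPM in RNA1, 7.41 and 7.2 CPM in RNA2 and 0.52, 0.78 and 1.05 CPM in control (log2 4.19 ± 0.21, adjusted p = 9.5e-06). Here the RNA2 libraries lay between the other groups. Mtkl, which encodes a peptide like the antimicrobial metchnikowin, had 32.2, 38.4 and 15.7 CPM in RNA1 and 0.97, 1.68 and 2.39 CPM in control (log2 4.10 ± 0.44). CG42807 had 61.8, 33.3 and 40.2 CPM in RNA1 and 3.91, 4.54 and 2.31 CPM in control (log2 3.65 ± 0.35). CG11741 (log2 3.88 ± 0.68), SPH93, a serine protease homologue (3.05 ± 0.49), and the metallothionein MtnD (2.79 ± 0.32) complete the 8 with the largest rises, and all 8 also passed the test against 1.5-fold.

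The rises with the lowest p-values were in w, lncRNA:CR45680, CG18473, Ilp6 and CG30026. The gene w (FBgn0003996, X:2790599-2796466) encodes the white transporter, which loads pigment precursors into the granules of the eye, and it is the marker carried on many fly transgenes. It had 228, 262 and 245 CPM in RNA1, 256 and 216 CPM in RNA2 and 59.3, 63.3 and 66.5 CPM in control (3.89-fold, log2 1.96 ± 0.09, adjusted p = 6.4e-06). Both knockdown groups lay well above the controls, and the labels do not say whether a construct carries a copy of w. CG18473 had 11.3, 9.48 and 12.1 CPM in RNA1 and 2.48, 2.55 and 2.57 CPM in control (log2 2.11 ± 0.13). CG30026 had 20.6, 26.4 and 22.2 CPM in RNA1 and 6.0, 7.39 and 8.01 CPM in control (log2 1.69 ± 0.13).

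In absolute CPM, retained rises outside the immune list were led by Hsp83, Bbd, lncRNA:Hsromega and w. Hsp83, the fly Hsp90 chaperone, had 1832, 1323 and 2065 CPM in RNA1, 626 and 1093 CPM in RNA2 and 487, 692 and 629 CPM in control (log2 1.53 ± 0.26, adjusted p = 0.013). Of the RNA2 libraries, 1 lay among the controls and 1 between the groups. Bbd, bombardier, a gene of the Toll immune response that is not in the immune list used here, had 616, 1014 and 810 CPM in RNA1 and 266, 293 and 298 CPM in control (log2 1.51 ± 0.19). The nuclear RNA lncRNA:Hsromega, which is induced by heat and other stress, had 925, 987 and 1056 CPM in RNA1 and 567, 481 and 610 CPM in control (log2 0.84 ± 0.12). Hsp83 shares exon sequence with CG14966 on the opposite strand.

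Among retained genes with large falls, several were close to absent in RNA1. CG11349 (3L:4473068-4475095) had 0, 2 and 3 reads in the RNA1 libraries and 179, 170 and 214 reads in the control libraries. The pooled reads per total gave a control level 99.2 times that of RNA1 (exact Clopper-Pearson 95% interval 42.3 to 307, for counting error only, since reads without molecular identifiers are not independent molecules). CG11349 was as low in RNA2, at 0.03 and 0 CPM.

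A pair of antisense RNAs close to each other on 3L fell in RNA1 alone. The level of asRNA:CR45822 (3L:7355717-7356598, plus strand) was 0.08, 0.06 and 0.18 CPM in RNA1, 10.2 and 8.11 CPM in RNA2 and 8.55, 7.95 and 8.56 CPM in control (log2 -6.29 ± 0.28, adjusted p = 6.4e-06). The level of asRNA:CR45835 (3L:7361639-7363598, minus strand) was 0.43, 0.25 and 0.40 CPM in RNA1, 11.7 and 9.27 CPM in RNA2 and 8.55, 9.31 and 9.37 CPM in control (log2 -4.66 ± 0.20). RNA2 lay at the control level for both. Their partners on the other strand, the insulator protein gene CTCF (log2 0.06 ± 0.08, adjusted p = 0.68) and Sec63, a gene of protein entry into the endoplasmic reticulum (-0.29 ± 0.09, adjusted p = 0.06), were not called.

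CG3397 showed the same order of groups, with 0.43, 0.50 and 0.70 CPM in RNA1, 7.66 and 7.47 CPM in RNA2 and 4.87, 8.72 and 5.64 CPM in control (log2 -3.57 ± 0.28). The chorion gene Cp38 (log2 -3.81 ± 0.63), the glycosyltransferase gene Ugt37A1 (-3.55 ± 0.65) and CG9377 (-3.29 ± 0.29) were low in RNA2 as well, with RNA2 means under every control library. Hsp70Ba (log2 -5.55 ± 0.65) is 1 of several near-identical Hsp70 copies between which reads can be split. Its copy Hsp70Bb moved the other way, with 695, 487 and 391 CPM in RNA1 and 28.8, 119 and 96.6 CPM in control (log2 2.69 ± 0.60), so neither is certain by itself.

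The falls with the lowest p-values, beside FBXO11 and both antisense RNAs, were in CG31300 and CG6356. CG31300 had 5.83, 5.62 and 4.86 CPM in RNA1, 4.71 and 5.58 CPM in RNA2 and 22.5, 23.3 and 26.3 CPM in control (log2 -2.14 ± 0.12, adjusted p = 1.7e-05). CG6356 had 46, 39.7 and 38.5 CPM in RNA1 and 112.7, 114.8 and 104.4 CPM in control (log2 -1.42 ± 0.09). The falls with the largest difference in CPM were modest in fold. Pdh, the photoreceptor dehydrogenase of the retinoid cycle, had 2567, 2808 and 2761 CPM in RNA1 and 3907, 3604 and 4312 CPM in control (1.45-fold lower, log2 -0.54 ± 0.09). EbpIII, Msr-110 and CG6409 fell by 0.65, 0.66 and 0.78 on the log2 scale. Pdh and CG6356 share exon sequence with a gene on the opposite strand.

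**Figure D3:**
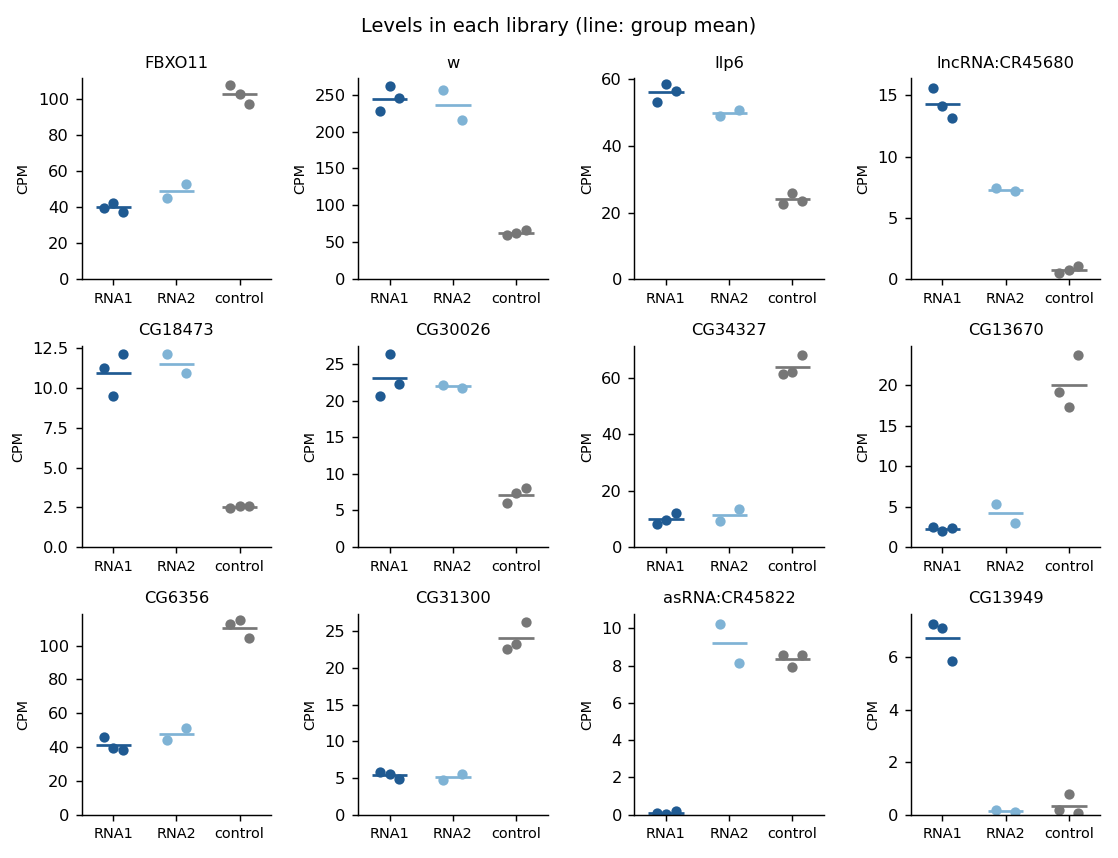
Level (CPM, each panel from 0) of FBXO11 and 11 other retained genes in the RNA1, RNA2 and control libraries, with a line at each group mean. In asRNA:CR45822 and CG13949 the RNA2 libraries lie with the controls, in lncRNA:CR45680 between the groups, and in the others shown nearer to RNA1. CG34327 and CG13670 were chosen after their values were seen.

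The function lists outside immunity were read against the shares of all genes, 5.01% called higher and 5.25% called lower, and against the median of all genes, 0.0069 on the log2 scale. Of 54 lists with at least 10 members tested, 5 had no called member: 21 deubiquitinases, 53 genes of endocytosis and endosomal sorting, 33 aminoacyl-tRNA synthetases, 40 histone modifiers and 32 nuclear pore genes. At an unadjusted edgeR p under 0.05 they had 2, 5, 4, 6 and 5 members, DESeq2's Wald test called 1 gene of endocytosis and none in the other 4 lists, and limma-voom called none in any of the 5. Without RNA1 replicate 3, 1 aminoacyl-tRNA synthetase was called. Of the 21 F-box genes tested, FBXO11 alone was called by edgeR with all libraries. With DESeq2's Wald test, with DESeq2 size factors or with no filter on low counts 2 were lower, and without RNA1 replicate 2, 1 was higher and 1 lower. No list was given a set test.

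**Figure D4:**
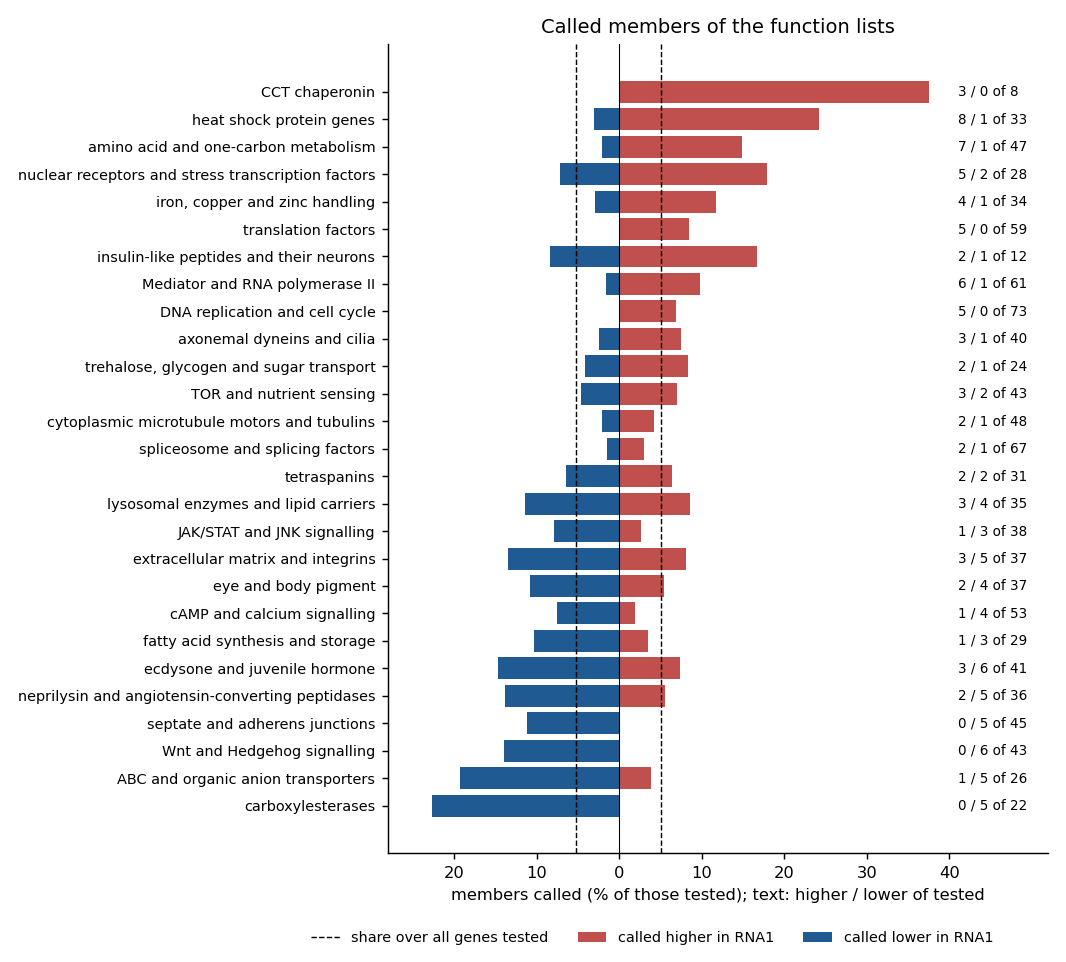
Percent of the tested members of each list with at least 3 calls that were called higher (red, to the right) or lower (blue, to the left) in RNA1, with the counts at the right edge. Dashed lines mark the shares over all genes tested, 5.01% and 5.25%, and lists with more calls higher than lower stand at the top.

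Amino acid and one-carbon metabolism had 7 of 47 tested members higher and 1 lower, with a median of 0.18 and 3 retained. Leaving out control replicate 1, 2 or 3 left 3, 5 and 5 calls, and leaving out RNA1 replicate 2 left 5. Of the 7 that rose, 4 act in the breakdown of phenylalanine and tyrosine, a grouping made after the values were seen. Hpd, the dioxygenase that makes homogentisate, had 238, 340 and 296 CPM in RNA1, 238 and 211 CPM in RNA2 and 147, 138 and 118 CPM in control (log2 1.11 ± 0.14, adjusted p = 0.0016). The next enzyme, hgo, which opens the ring of homogentisate, had 35.5, 46 and 36.2 CPM in RNA1, 40.1 and 28.3 CPM in RNA2 and 13.6, 12.1 and 14.7 CPM in control (log2 1.54 ± 0.16). The last enzyme, Faa, fumarylacetoacetase, had 64.9, 72 and 66.1 CPM in RNA1 and 38.9, 39.3 and 40.5 CPM in control (log2 0.77 ± 0.07).

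These 3 enzymes were retained, and in each the groups stood apart. Tat, the tyrosine aminotransferase, was also called (log2 0.79 ± 0.19), and so was GstZ1 (0.88 ± 0.16), 1 of a pair of maleylacetoacetate isomerase genes outside that list, and retained. Its neighbour GstZ2 (0.14 ± 0.07, adjusted p = 0.28) and Hn, the phenylalanine hydroxylase that starts the pathway (0.38 ± 0.11, adjusted p = 0.063), were not. Hpd and Tat share exon sequence with genes on the opposite strand. Other called members were Gnmt, the glycine N-methyltransferase (log2 2.05 ± 0.34), Mthfs of folate metabolism (1.91 ± 0.42) and Mccc1 of leucine breakdown (0.60 ± 0.13). Nos, the nitric oxide synthase, fell by 0.35 on the log2 scale. Gnmt, Mccc1 and Mthfs also overlap genes on the other strand. In the same heads the summed fat body markers, given above, were mostly apolpp. It had 1452, 2165 and 2150 CPM in RNA1 and 1177, 1310 and 1526 CPM in control, so the groups overlapped. The fat body markers Yp2 and Yp3 had estimates below 0 (log2 -0.69 and -0.16) and the others above 0. The part of the fat body was not tested.

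Wnt and Hedgehog signalling had 6 of 43 tested members lower and 0 higher, with a median of -0.09 and 33 of 43 members below 0. Leaving out control replicate 1, control replicate 2 or RNA1 replicate 2 left 3 calls. The ligand wg had 2.34, 2.03 and 2.73 CPM in RNA1, 2.98 and 3.63 CPM in RNA2 and 6.31, 5.44 and 6.25 CPM in control (log2 -1.34 ± 0.17, adjusted p = 0.0019). The ligand Wnt6, close to it on 2L, had 16.2, 18.0 and 18.3 CPM in RNA1, 18.8 and 21.2 CPM in RNA2 and 30.9, 35.5 and 31.3 CPM in control (log2 -0.90 ± 0.09). In both genes every knockdown library lay under every control library. The glypican dlp, which binds Wnt and Hedgehog at the cell surface, fell by 0.45 on the log2 scale and was retained. Notum, a secreted enzyme that inactivates Wnt ligands (log2 -1.13 ± 0.25), the receptor fz3 (-0.41 ± 0.11) and the Hedgehog receptor ptc (-0.48 ± 0.12) were called and not retained.

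Hormone genes moved in both directions. Ilp6 (X:2331493-2334658), an insulin-like peptide made in the fat body, had 53.2, 58.5 and 56.6 CPM in RNA1, 49.0 and 50.8 CPM in RNA2 and 22.5, 26 and 23.4 CPM in control (2.34-fold, log2 1.23 ± 0.08, adjusted p = 5.5e-05). Ilp3, a peptide of the insulin-producing neurons, was higher by a smaller amount (log2 0.38 ± 0.10), and Sdr, a secreted decoy of the insulin receptor, was lower (-0.45 ± 0.08, retained). These were the 3 calls among 12 genes tested, 2 higher and 1 lower.

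Of 41 ecdysone and juvenile hormone genes, 3 were higher and 6 lower, and 4, 4 and 5 were called without control replicate 1, control replicate 2 and RNA1 replicate 2. Rises and falls were equal in number without control replicate 2 (2 and 2) or 3 (3 and 3). Kr-h1, a zinc finger factor induced by juvenile hormone, had 39.5, 39.3 and 34.7 CPM in RNA1, 34.6 and 38 CPM in RNA2 and 23, 20.9 and 23.8 CPM in control (log2 0.75 ± 0.09). The takeout gene to, which encodes a carrier-like protein of the juvenile hormone binding family, had 18.6, 23.1 and 18.3 CPM in RNA1, 23.6 and 25 CPM in RNA2 and 45, 50.7 and 47.8 CPM in control (log2 -1.26 ± 0.10, adjusted p = 0.00021). MsrA, a methionine sulfoxide reductase first described as an ecdysone-induced gene, fell by 0.61 on the log2 scale. These 3 were retained.

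The enzymes of hormone synthesis and turnover were weakly expressed or moderately changed. The methyltransferase jhamt, which completes juvenile hormone, had 1.73, 0.95 and 0.79 CPM in RNA1 and 1.77, 3.55 and 4.17 CPM in control (log2 -1.45 ± 0.38). The hydroxylase shd, which makes the active ecdysteroid, had 0.43, 1.11 and 1.43 CPM in RNA1 and 3.18, 2.48 and 2.34 CPM in control (-1.44 ± 0.37). The other calls were Cyp6g2 (1.35 ± 0.26), ImpE1 (0.63 ± 0.15), Jheh3 (-0.54 ± 0.12) and Hnf4 (-0.33 ± 0.07).

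Heat shock genes had more rises than falls. Of 33 heat shock protein genes, 8 were higher and 1 lower, 4 were retained and the median was 0.23. Calls numbered 4 without control replicate 2 and 5 without control replicate 3 or any 1 RNA1 replicate. Beside Hsp83, its co-chaperone Cdc37 had 59.3, 56.9 and 65.4 CPM in RNA1, 53.1 and 49.8 CPM in RNA2 and 44.2, 47.3 and 43.8 CPM in control (log2 0.42 ± 0.08). Hsp110, a nucleotide exchange factor of Hsp70, had 196, 214 and 249 CPM in RNA1, 160 and 163 CPM in RNA2 and 149, 149 and 151 CPM in control (log2 0.55 ± 0.09). For both genes the RNA2 libraries lay between the other groups. The co-chaperone p23 (0.33 ± 0.06) and the heat shock factor Hsf (0.23 ± 0.06) were called and not retained.

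Some inducible members overlapped between the groups; Hsp26, Hsp68, Hsp23 and Hsp27 were named after their values were seen. Hsp26 had 431, 121 and 194 CPM in RNA1 and 109, 368 and 293 CPM in control, and Hsp68 had 740, 171 and 293 CPM in RNA1 and 186, 590 and 493 CPM in control. RNA1 replicate 1 and control replicates 2 and 3 were the high libraries for both genes, and neither was called (log2 -0.05 ± 0.72 and -0.08 ± 0.74). Hsp27 (-0.34 ± 0.79) and Hsp23 (0.21 ± 0.48) overlapped too and were not called. In the copies Hsp70Ba and Hsp70Bb, described above, the groups did not overlap, while Hsp70Aa (-0.40 ± 0.57) and Hsp70Ab (1.52 ± 1.11) were not called.

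The CCT chaperonin, the ring that folds actin and tubulin, had 3 of its 8 subunits called higher, CCT4 (log2 0.51 ± 0.11), CCT8 (0.46 ± 0.10) and CCT1 (0.38 ± 0.08), and all 8 estimates were above 0, with a median of 0.38. CCT4 had 45.6, 56.8 and 61.4 CPM in RNA1, 52.6 and 51.6 CPM in RNA2 and 36.3, 39.6 and 39.2 CPM in control. Of the 8, 7 had an unadjusted edgeR p under 0.05. The count of calls changed with the test and with the library left out. It was 6 by DESeq2's Wald test, 7 without RNA1 replicate 1, 1 without RNA1 replicate 3, and 0 without RNA1 replicate 2 or without any 1 of the control replicates.

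Metal handling had 4 of 34 members higher and 1 lower. Without control replicate 1 or 2, 1 was higher and 1 lower, and without control replicate 3 or any 1 RNA1 replicate, 2 were higher and 1 lower. The metallothioneins, small metal-binding proteins, supplied 3 of the rises. MtnD had 2.29, 4.03 and 3.40 CPM in RNA1, 1.89 and 2.48 CPM in RNA2 and 0.39, 0.66 and 0.34 CPM in control. MtnA had 513, 389 and 403 CPM in RNA1, 349 and 313 CPM in RNA2 and 295, 285 and 327 CPM in control (log2 0.52 ± 0.11). MtnB (2.32 ± 0.60) stayed at or under 1.251 CPM in every library. MTF-1, the factor that switches metallothioneins on, was higher (0.46 ± 0.12), and the zinc exporter ZnT63C lower (-0.41 ± 0.07). MtnD and ZnT63C were retained.

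**Figure D5:**
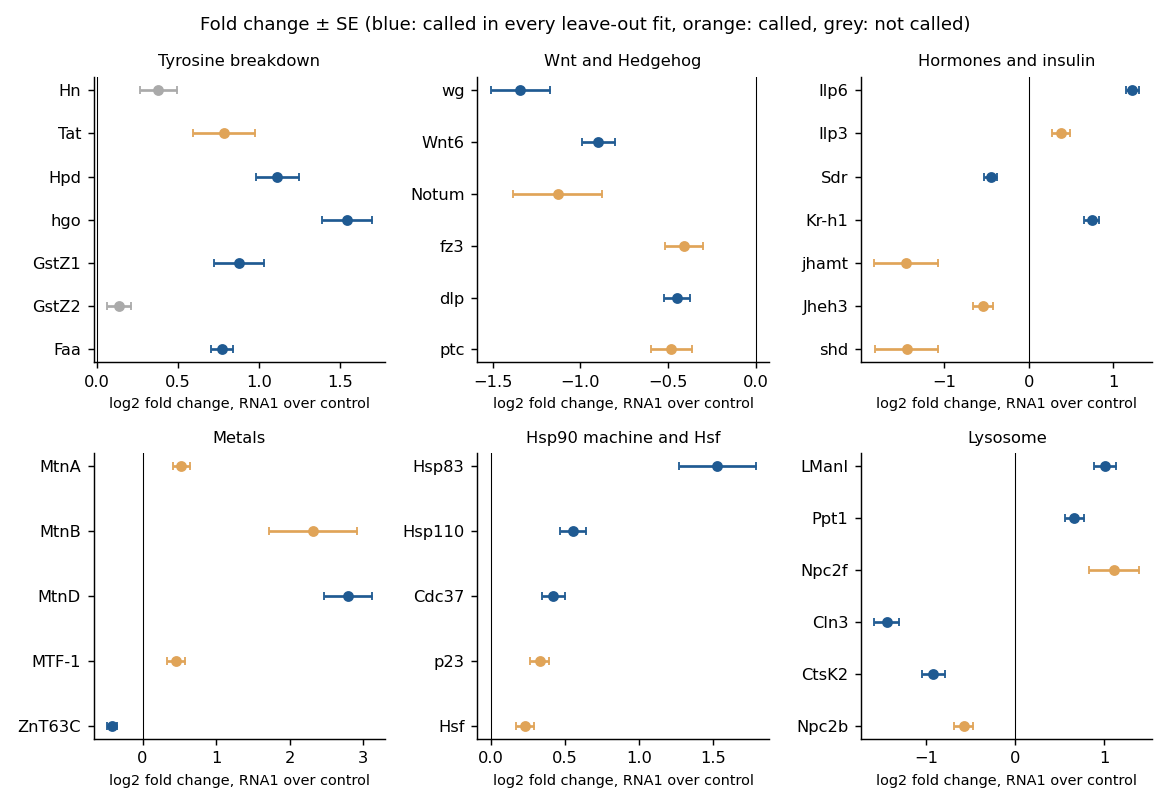
Log2 fold change of RNA1 over control, with its SE, for 36 genes in 6 groups; blue marks retained genes, orange other called genes and grey genes not called. All members of the tyrosine group lie above 0 and all the Wnt and Hedgehog genes shown lie below 0; the genes shown were selected after their values were seen.

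A list of peptidases, mainly of the neprilysin and angiotensin-converting families, had 5 of 36 members lower and 2 higher, with 4 retained. Without control replicate 2 or RNA1 replicate 2, 4 were lower and 0 higher, and without RNA1 replicate 1, 4 were lower and 4 higher. Nepl4 had 1.65, 1.03 and 1.85 CPM in RNA1, 1.03 and 1.53 CPM in RNA2 and 13.5, 7.51 and 9.40 CPM in control (log2 -2.75 ± 0.29, adjusted p = 0.00074). Nepl5 had 24.8, 26.7 and 31.2 CPM in RNA1, 28 and 29.1 CPM in RNA2 and 46.7, 52.4 and 54.1 CPM in control (log2 -0.89 ± 0.10). Nep1 (-0.60 ± 0.09) and Invadolysin (-0.56 ± 0.08), which is of neither family, were the other retained members.

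Carboxylesterases had 5 of 22 members lower and 0 higher, and 3 were called without control replicate 2 or 3. The neighbours alpha-Est8, alpha-Est9 and alpha-Est10 on 3R were all lower (log2 -0.46 ± 0.09, -0.64 ± 0.08 and -1.17 ± 0.18). Of these, alpha-Est10 had 16, 14.3 and 17.6 CPM in RNA1, 10.6 and 18.2 CPM in RNA2 and 33.7, 36.8 and 37.1 CPM in control. The other 2, Nrt and Gli, are membrane proteins of this family that act in cell adhesion and at epithelial junctions (-0.49 ± 0.07 and -0.49 ± 0.13).

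Matrix genes changed in both directions, and the junction genes called were lower. Of 37 matrix and integrin genes, 5 were lower and 3 higher. The balance turned to 3 lower and 4 higher with library totals and to 2 lower and 5 higher without RNA1 replicate 1. Without control replicate 1, 2 or 3 or RNA1 replicate 2, 3, 3, 4 and 4 were lower and 0 higher. Tig, an integrin ligand, had 87.7, 114 and 135 CPM in RNA1, 110 and 128 CPM in RNA2 and 241, 303 and 227 CPM in control (log2 -1.20 ± 0.17). Timp, the inhibitor of matrix metalloproteinases, fell by 0.40 and tnc by 0.62 on the log2 scale, and dyl rose (1.93 ± 0.45) at levels up to 1.22 CPM. Of 45 septate and adherens junction genes, 5 were lower and none higher: Gli, the cell adhesion protein Nrg (-0.38 ± 0.08), mgl (-0.47 ± 0.10), the E-cadherin shg (-0.24 ± 0.06) and the polarity protein crb (-0.23 ± 0.06). None of these junction genes was retained. Leaving out control replicate 1 or 2 or RNA1 replicate 2 left 0 calls, and leaving out control replicate 3 or RNA1 replicate 1 left 1. Library totals gave 2 and no filter on low counts 3, all lower, and without RNA1 replicate 3 the calls were 3 lower and 1 higher.

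Lysosomal genes divided, with 3 of 35 higher and 4 lower, and 2 and 2 without control replicate 2. Cln3, whose human counterpart is mutated in juvenile neuronal ceroid lipofuscinosis, had 7.42, 8.26 and 10.1 CPM in RNA1, 9.94 and 11.7 CPM in RNA2 and 21.1, 22.8 and 26.2 CPM in control (log2 -1.44 ± 0.14, adjusted p = 0.00042). CtsK2 was lower as well (-0.92 ± 0.13). The alpha-mannosidase LManI had 17.7, 22.3 and 22.8 CPM in RNA1 and 10.2, 11.1 and 9.90 CPM in control (1.01 ± 0.12). Ppt1, a thioesterase that removes palmitate from proteins, was higher too (0.66 ± 0.11). These 4 were retained, and Npc2f (1.11 ± 0.28) and Npc2b (-0.58 ± 0.11), of a family of sterol carriers, were called and not retained.

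Eye and body pigment genes had 2 of 37 higher, w among them, and 4 lower. This balance did not hold throughout. It was 3 higher and 2 lower with library totals, 2 and 2 without control replicate 1, and 2 higher and 1 lower without RNA1 replicate 1. Without control replicate 2 or 3 or RNA1 replicate 2, 1 was higher and 0 lower. The gene bw encodes a partner with which the white transporter carries red pigment precursors, and it moved the other way from w, with 70.3, 77.6 and 95.3 CPM in RNA1, 92.8 and 80.1 CPM in RNA2 and 107, 107 and 111 CPM in control (log2 -0.42 ± 0.11). Rab32, a GTPase of pigment granule formation, fell by 0.53 and yellow-c by 0.81 on the log2 scale. ABC and organic anion transporters, a list that also holds w, had 1 of 26 higher and 5 lower, and 3, 1, 3 and 2 were called without control replicate 1, 2 or 3 or RNA1 replicate 2. Of these, 0 were lower without control replicate 2 and 1 without RNA1 replicate 2. Among the lower ones were Oatp74D (-0.53 ± 0.10), MRP (-0.38 ± 0.08) and Orct (-0.79 ± 0.16), an organic cation transporter that the list also holds.

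Lipid genes changed in both directions. Of 29 genes of fatty acid synthesis and storage, 1 was higher and 3 lower. These shares were 3.45% and 10.3%, against 5.01% and 5.25% over all genes. There was 1 higher and 1 lower with library totals and when RNA1 replicate 1 or 2 or control replicate 1 or 3 was left out, and without control replicate 2, 2 were higher and 1 lower. The triglyceride lipase bmm had 149, 198 and 160 CPM in RNA1, 157 and 110 CPM in RNA2 and 96.0, 95.8 and 91.4 CPM in control (log2 0.84 ± 0.14). The elongase sit had 3.33, 3.11 and 4.19 CPM in RNA1, 3.76 and 3.60 CPM in RNA2 and 8.03, 9.14 and 7.51 CPM in control (-1.22 ± 0.15). Opa1, which fuses inner mitochondrial membranes, was the 1 gene called of 30 in mitochondrial dynamics and quality control (-0.38 ± 0.06, retained), and 2 were called without RNA1 replicate 3. The larval storage proteins Lsp1alpha (1.62 ± 0.26) and Lsp1gamma (1.30 ± 0.31) were higher, 2 of 8 in their list, and 1 was called without any 1 control replicate or without RNA1 replicate 1 or 2.

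Genes of transcription, translation and the cell cycle showed a few small rises. The shares called higher were 9.84%, 8.47% and 6.85%, against 5.01% over all genes. Mediator and RNA polymerase II had 6 of 61 higher and 1 lower, led by Taf2 (log2 0.48 ± 0.08, retained), MED11 (0.53 ± 0.10) and MED31 (0.39 ± 0.08), with the elongation factor TfIIS lower (-0.38 ± 0.07). Leaving out control replicate 1, 2 or 3 left 3, 1 and 4 calls, and leaving out RNA1 replicate 2 left 3. Translation factors had 5 of 59 higher and 0 lower, none retained, among them the release factor eRF1 (0.32 ± 0.07) and eEF5 (0.32 ± 0.07). Library totals gave 11 higher, the stricter filter 9, the fit without RNA2 libraries 9 and leaving out either RNA2 replicate 8, with 0 lower in each. DESeq2's Wald test gave 11 higher and 2 lower. Leaving out control replicate 1 or 2 or RNA1 replicate 2 left 0 calls, leaving out RNA1 replicate 3 left 3 higher, and leaving out control replicate 3 gave 1 lower and 0 higher.

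DNA replication and cell cycle genes had 5 of 73 higher (6.85%, near the 5.01% over all genes) and 0 lower, none retained. The higher ones included CycE, the cyclin of entry into S phase (0.76 ± 0.16), and SMC5 (0.47 ± 0.11). Calls numbered 2, 0 and 0 when control replicate 1, 2 or 3 was left out, 2 and 1 when RNA1 replicate 2 or 3 was, and 3 when RNA2 replicate 1 was. Nuclear receptors and stress transcription factors had 5 of 28 higher and 2 lower, among them maf-S, the partner of the oxidative stress factor Cnc (0.47 ± 0.08, retained), the sugar-sensing factor Mondo (0.28 ± 0.07), Keap1, which holds Cnc in check (-0.56 ± 0.11), and the Fos homologue kay (-0.32 ± 0.07). Calls there numbered 2, 1 and 4 when control replicate 1, 2 or 3 was left out and 2, 3 and 4 when RNA1 replicate 1, 2 or 3 was. The balance was 1 higher and 3 lower without control replicate 3, and 1 and 1 without control replicate 1 or RNA1 replicate 1. Genes of cAMP and calcium signalling had 4 of 53 lower (7.55%, near the 5.25% over all genes) and 1 higher, with none retained. The lower ones were rut, the calcium-sensitive adenylyl cyclase of learning (-0.35 ± 0.07), the ryanodine receptor RyR (-0.40 ± 0.09), the calcium pump SERCA (-0.45 ± 0.10) and the calcium sensor Stim (-0.30 ± 0.08). The number was 1 without any 1 control replicate, and 3 and 2 without RNA1 replicate 1 or 2.

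Growth, tetraspanin and sex gene lists had as many calls higher as lower with all libraries. In each direction the share was 4.35%, 6.45% and 7.69%, against 5.01% higher and 5.25% lower over all genes. The Hippo pathway had 1 of 23 higher, ex, an upstream activator of the pathway (log2 0.51 ± 0.08), and 1 lower, Wbp2 (-0.42 ± 0.07), and both were retained. Of 31 tetraspanins, 2 were higher, Tsp42Ek (0.76 ± 0.10) and Tsp42Ed (0.66 ± 0.12), and 2 lower, Tsp29Fb (-0.63 ± 0.10) and Tsp42El (-0.36 ± 0.08). Of 13 sex-biased head genes, sxe2 had 112, 155 and 172 CPM in RNA1, 195 and 142 CPM in RNA2 and 280, 334 and 338 CPM in control (-1.12 ± 0.18, retained). The sex determination factor dsx was higher (0.50 ± 0.13). Leaving out control replicate 2 or 3, or RNA1 replicate 2 or 3, left 1 call there. Male and female marker levels are given above.

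Called genes also lay side by side on the chromosomes. There were 15 runs of at least 3 neighbouring tested genes called in 1 direction, holding 57 genes. Of the runs, 11 held no member of the immune list. That list leaves out Mtkl, which lay in a run with Had2 and lncRNA:CR42715. The run of 10 on 2R was the bomanin peptide cluster. A run of 5 on 2L:851251-861806 held CG4291 (log2 0.48 ± 0.08), kraken (1.75 ± 0.15), CG13949, lncRNA:CR45345 and CG13950 (2.15 ± 0.30), all higher and all retained. The gene kraken, which encodes a serine hydrolase, had 140, 155 and 209 CPM in RNA1, 52.2 and 41.8 CPM in RNA2 and 47.3, 49.8 and 52.8 CPM in control, and CG4291 had 15.7, 15 and 16.2 CPM in RNA1, 11.3 and 11.5 CPM in RNA2 and 11.2, 11.3 and 11.1 CPM in control. CG13950 had 4.50, 3.92 and 3.98 CPM in RNA1, 0.92 and 1.59 CPM in RNA2 and 0.70, 1.34 and 0.74 CPM in control. For kraken, CG4291 and CG13950, as for CG13949 and lncRNA:CR45345, RNA2 stood close to the controls.

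A run of 4 on 2L:6367882-6411326 was lower: Nepl4, slam (log2 -0.99 ± 0.26), DIP-epsilon, an adhesion protein of neurons (-0.49 ± 0.10), and Nepl5. In these genes every RNA2 library lay under every control library too. A run of 3 on 3L:8320763-8330237, CG13670 (-3.14 ± 0.22), CG34461 (-1.66 ± 0.32) and CG34462 (-1.79 ± 0.44), was lower as well, and is named after its values were seen. Neighbouring genes can share reads and regulatory sequence, so members of a run are not independent observations.

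Calls were not spread evenly over chromosomes. On X, 50 of 1800 genes (2.78%) were higher and 98 (5.44%) lower, with a median log2 fold change of -0.04. On the arms 2L, 2R, 3L and 3R, 502 of 9103 (5.51%) were higher and 476 (5.23%) lower, with a median of 0.02. Scaled by library totals alone, the shares were 3.72% higher and 4.50% lower on X and 7.25% and 4.38% on those arms. The share called higher was lower on X than on those arms with each alternative scaling, filter, test and left-out library tried. On chromosome 4, 2 of 99 genes were higher and 2 lower. Of 682 noncoding RNA genes, 29 were higher and 13 lower (6.16%), with a median of 0.18, against 10.6% of protein-coding genes with a median of 0.0028. These shares were not matched for level. Over all genes, 5.81% were called up to 3 CPM and 11.6% above 10 CPM. The part of level in the difference between coding and noncoding genes was not tested.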

How the data were processed

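The authors deposited 1 table of read counts per gene for 8 libraries, whole numbers with no normalization. RNA was made into stranded mRNA libraries, per the labels' protocols. Per the submitters' processing notes, bcl2fastq 2.17, cutadapt 1.18, FastQC 0.11.8, STAR 2.6.1, SAMtools 1.8 and DESeq2 1.24.0 were used with build BDGP6. How reads were assigned to genes, whether strand was used, and with which annotation release, is not given in the sources used here, so genes that overlap on opposite strands, and near-identical copies, are uncertain. Gene names and coordinates came from Ensembl's BDGP6 annotation: 17548 of 17676 gene IDs matched a symbol.

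Counts were analysed with edgeR 4.0.16 in R 4.3.3: filterByExpr (minimum count 10, minimum total 15), TMM scaling, and 1 robust quasi-likelihood fit of group means over all 8 libraries, contrast RNA1 minus control, two-sided, Benjamini-Hochberg adjusted over the 11081 genes tested. Every adjusted p is from that fit. The script was tested on simulated data. CPM are TMM-scaled. Each library had 32434805 to 41589222 counted reads. SE is the absolute log2 fold change over the square root of F. No pair of replicates agreed within sampling noise (chi-square per degree of freedom at least 23.1). The minimum change was tested with glmTreat at 1.5-fold.

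The members and lists were chosen with earlier results of these data known. Named genes were FBXO11; among retained genes outside the immune list with at least 1 CPM in the higher group, the 8 largest changes, the 5 lowest p and the 4 largest CPM differences in each direction; from each list, all calls where 5 or fewer, otherwise the 4 with the lowest p; the 3 longest runs; and markers. Further list members named (in tyrosine breakdown and among the Wnt, hormone, heat shock and lysosome genes) were chosen after their values were seen. Alternatives were DESeq2 1.42.0, limma 3.58.1 (voom), other scalings and filters, a replicate block, and each library left out.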

Additional observations from a re-analysis of the deposited data

How the results depend on the processing

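All genes named by the rule (179, or 172 with the stricter filter) kept their direction under every alternative tried. This is no test of direction, since they were named for being called and no called gene had groups that overlapped. Between 40 and 87 of the named genes lost their call when 1 control or RNA1 library was left out. The number was 48 with the replicate block, and at most 12 under any other alternative. DESeq2's Wald test called 1642 genes, of which 740 were retained by the same rule, and limma-voom 1120, of which 56 passed 1.5-fold. By the Wald test, 8 cell cycle genes were higher and 0 lower, and 4 matrix genes were higher and 9 lower. In the peptidase list that test gave 3 higher and 8 lower. It called 3 pigment genes higher and 7 lower, and 3 genes of fatty acid synthesis and storage higher and 5 lower. With a filter removed or made stricter, with DESeq2 size factors or with the RNA2 libraries left out of the fit, 1096 to 1237 genes were called. Leaving out 1 library gave 476 to 1189 genes called, 233 to 565 higher, 243 to 634 lower and 64 to 137 past 1.5-fold. The cause of this range was not tested. FBXO11 was lower with an adjusted p under 0.05 in every one of these fits. Same-numbered RNA1 and control libraries did not deviate together (correlations -0.0376, -0.082 and -0.0276), so no sign of pairing by number was seen. Libraries of unlike number gave -0.0135 to 0.0676. A shared effect on few genes could be missed in such correlations over all genes. The replicate block gave 773 calls, 344 of them higher, with 82 past 1.5-fold and 88 retained. Depth limits low genes: up to 3 CPM, the interval lay within 1.5-fold for 2.75% of genes.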

Other observations

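For some genes named above, RNA1 stood apart while both RNA2 libraries lay within or close to the range of the controls. These included kraken, CG4291, CG13949, lncRNA:CR45345 and CG13950 on 2L, asRNA:CR45822 and asRNA:CR45835 on 3L, and CG3397 on 3R. The labels give no genotype beyond KD1, KD2, KD3 and WT, and construct and background cannot be told apart there.

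Of the called genes, 248 of the 555 higher and 333 of the 582 lower had an estimated change under 1.5-fold.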
